A study of Mus musculus with 15 samples.

Results

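The enzymes of glycolysis and the citric acid cycle were examined in mouse kidney as a set of 36 genes given by name, all of which had a row in the deposited table of 23284 genes. They cover hexokinases, phosphofructokinases and their regulator Pfkfb3, the lower glycolytic enzymes, lactate dehydrogenases, the pyruvate dehydrogenase complex, the citric acid cycle, and the malate and aspartate enzymes that carry reducing equivalents into mitochondria. Of the 36 genes, 33 reached at least 1 FPKM in 5 or more of the 15 libraries and were tested. Hk2, Gapdh and Eno1 did not, and they are given as listed. FPKM, a fragment count scaled to transcript length and to library size, is a level per unit of length and so can be set side by side between genes.

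Kidneys of wild-type (WT) mice, with a time of 2 h in the labels, formed 3 groups of 5: D-alanine (D-ala), L-alanine (L-ala) and Vehicle. Alanine exists as mirror-image forms, of which the L form is built into proteins. The series asks about the effect of D-alanine, which the comparison with Vehicle addresses, and the comparison with L-ala asks where the mirror forms differed. The labels give no mouse strain, sex, age, dose, route, vehicle composition or statement that samples came from separate animals, so equal dosing is not assumed. The p-values therefore measure the spread between samples, which may be technical in part. Because the tissue was sequenced in bulk, fewer cells of a type and less RNA per cell cannot be told apart.

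Glycolysis splits glucose into pyruvate with a small gain of ATP, and lactate dehydrogenase interconverts pyruvate and lactate. Pyruvate dehydrogenase turns pyruvate into acetyl-CoA, which citrate synthase feeds into the citric acid cycle, whose oxidation steps supply electrons for respiration. In the kidney the proximal tubule mostly oxidises fatty acids, lactate and glutamine and makes glucose, whereas distal segments and the medulla carry more glycolysis. Both alanine forms can yield pyruvate, L-alanine by transamination and D-alanine through D-amino acid oxidase, a peroxisomal enzyme of the proximal tubule.

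Recovered depth, estimated from the deposited counts, was 7570000 to 10940000 reads per library, and the 36 genes held 1.09% to 1.23% of the summed FPKM. The L-ala library that differed most from its group was replicate 5, whose gene-centred values had a mean correlation of -0.118 with those of the remaining L-ala libraries. The Spearman correlation of gene-centred level with gene length, across genes, had a median of 0.131 in D-ala, -0.430 in L-ala and 0.196 in Vehicle libraries. L-ala replicate 5 was at 0.234, while the remaining L-ala libraries lay between -0.492 and -0.183. All 10 proximal tubule markers were present, with a summed level, mostly Kap, of 78073 to 105480.0 FPKM in D-ala, 108692 to 145028 FPKM in L-ala and 86076 to 105486 FPKM in Vehicle kidneys. In those markers, 4 of 10 passed the test as higher in D-ala than in Vehicle kidneys, where 6.53% of all tested genes did. As higher in L-ala than in Vehicle kidneys 5 of 10 passed, where 6.48% of all tested genes did. Red blood cell markers, of which 8 of 10 had a row, summed to 75.0 to 507 FPKM in D-ala, 309 to 787 FPKM in L-ala and 53.5 to 299 FPKM in Vehicle kidneys. Of the 7 tested 1 passed, lower in D-ala than in L-ala kidneys, where 6.66% of all tested genes did. Neutrophil markers, of which 7 of 8 had a row, summed to 2.38 to 11.3 FPKM in D-ala, 13.1 to 34.98 FPKM in L-ala and 0.676 to 7.72 FPKM in Vehicle kidneys. Camp was at 0 everywhere, and both tested markers passed as higher in L-ala than in Vehicle kidneys, where 6.48% of all tested genes did. Macrophage markers, all 8 with a row, summed to 109 to 170.4 FPKM in D-ala, 125 to 211 FPKM in L-ala and 150.5 to 263 FPKM in Vehicle kidneys. Of these, 3 of the 7 tested passed as lower in D-ala and 1 as lower in L-ala than in Vehicle kidneys, where 4.92% and 4.53% of all tested genes did. The 8 markers of the thick limb and distal tubule, the 8 of the collecting duct and the 5 of podocytes were all tested. Of the thick limb and distal tubule markers 2 were higher in D-ala and 1 lower in L-ala than in Vehicle kidneys, and of those of the collecting duct 3 were higher and 1 lower in D-ala than in Vehicle kidneys. Beside these counts, 6.53% of all tested genes were higher and 4.92% lower in D-ala, and 4.53% lower in L-ala, than in Vehicle kidneys. Podocyte markers had no call against Vehicle. Adipocyte markers, all 8 with a row, summed to 70.8 to 502 FPKM in D-ala, 147 to 243 FPKM in L-ala and 100 to 434 FPKM in Vehicle kidneys. Of the 6 tested, 0 passed in any comparison. The adipocyte sum was highest in D-ala replicate 2 and lowest in D-ala replicate 4. Its part in the levels of Pfkfb3, Pklr and Hk2 was not tested. Markers of the adrenal cortex summed to at most 1.02 FPKM in a library, with Cyp11b1 and Cyp11b2 at 0.

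Malate dehydrogenases, lactate dehydrogenases, Aldoa and Tpi1 were the most abundant transcripts of the set. Mdh1, cytosolic malate dehydrogenase, averaged 1272 FPKM over the 15 libraries and ranked 57 of 23284 genes. Ldhb, the heart-type lactate dehydrogenase subunit, averaged 1007 FPKM, and Aldoa, the aldolase of most tissues, 763 FPKM. These were followed by Mdh2, mitochondrial malate dehydrogenase, at 576 FPKM, and then by Tpi1, triose phosphate isomerase, at 497 FPKM and Ldha, the muscle-type lactate dehydrogenase subunit, at 491 FPKM, whose libraries overlapped (439 to 552 FPKM for Tpi1, 423 to 553 FPKM for Ldha). The genes of the committed glycolytic steps were far lower. Hk1, the main hexokinase here, averaged 26.1 FPKM, the phosphofructokinase subunits Pfkm, Pfkl and Pfkp 26.01, 20.997 and 11.92 FPKM, and Pklr, the liver and red cell pyruvate kinase, 16.3 FPKM. Pfkfb3 was the lowest tested gene of the set at 5.09 FPKM. It makes a bisphosphate that activates phosphofructokinase and is distinct from the one that aldolase splits.

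**Figure D1:**
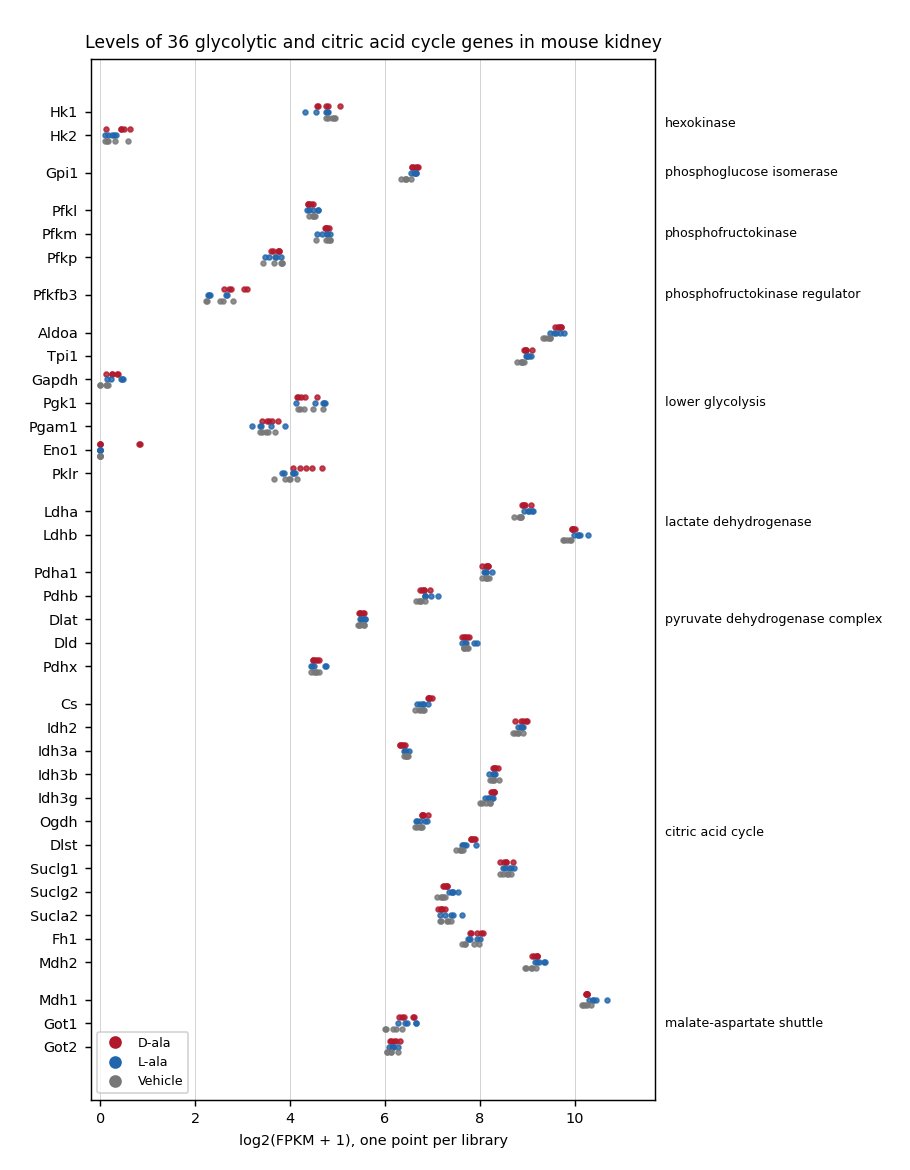
Level of each of the 36 genes as log2(FPKM + 1), 1 point per library, with D-ala, L-ala and Vehicle libraries on lines of their own from top to bottom of each gene and genes grouped by role. Mdh1 and Ldhb lie farthest right, and Hk2, Gapdh and Eno1 lie at the left edge.

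Gapdh, the glyceraldehyde phosphate dehydrogenase that is often used as a constant control, and Eno1, the enolase of most tissues, were listed near or at 0 in this table although both enzymes are used by nearly every cell. Gapdh was listed at 0.287, 0.270, 0.178, 0.184 and 0.0910 FPKM in D-ala, 0.172, 0.378, 0.380, 0.348 and 0.108 FPKM in L-ala and 0.118, 0.0930, 0.0900, 0 and 0 FPKM in Vehicle kidneys. That is at most 4 scaled counts in a library. Eno1 was listed at 0.783 FPKM in D-ala replicate 1 and 0.753 FPKM in D-ala replicate 4 and at 0 in the other 13 libraries. Both genes share much of their sequence with other annotated genes: of the 50-base stretches of its longest GENCODE M21 transcript, 82.49% for Gapdh occurred in at least 1 of 218 other genes, 213 of them pseudogenes, and 72.19% for Eno1 occurred elsewhere, 70.53% in Eno1b alone. How the program that made the table treated reads that match several genes is not given in the sources used here. Whether shared sequence lowered the listed levels of Gapdh and Eno1 was not tested. The share was 67.96% for Pgk1 and 41.48% for Pgam1, whose levels are uncertain because that treatment of reads is unknown. It was 32.29% for Got2, 30.26% for Pdhb, 27.01% for Ldhb, 21.82% for Suclg2, 19.26% for Gpi1, 16.65% for Ldha, 13.53% for Aldoa, 7.51% for Tpi1 and 4% for Cs. The other 23 genes shared 0.61% or less. No fold change is given for Gapdh or Eno1, and a change in any of the genes named here could include reads of a copy.

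**Figure D2:**
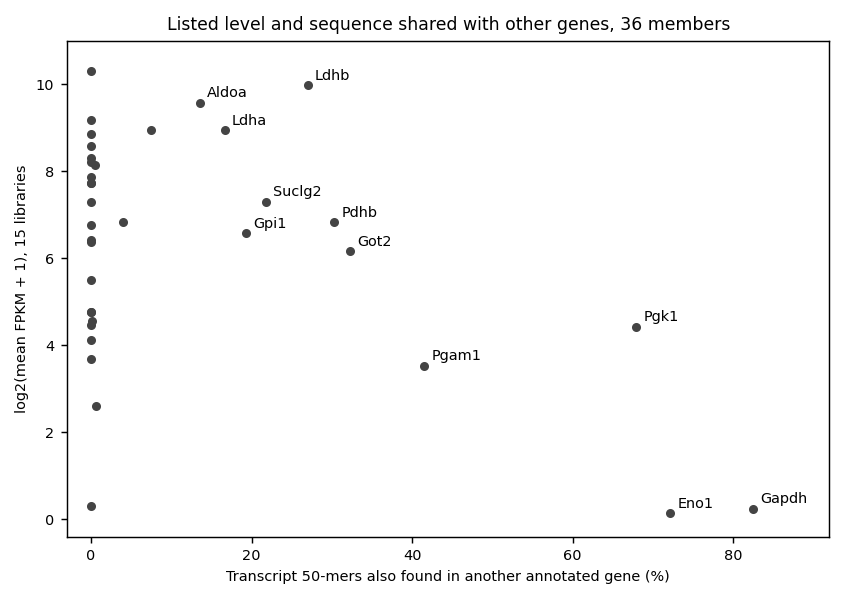
Mean level over the 15 libraries, as log2(mean FPKM + 1), against the percentage of 50-base stretches of each gene's transcript that also occur in another annotated gene, 1 point per gene. Gapdh at 82.49% and Eno1 at 72.19% have the largest shares and the lowest levels beside Hk2, which shares none.

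D-alanine was accompanied by higher transcripts at scattered steps from the isomerase to the cycle. Of the 33 tested genes, 6 rose and 0 fell in D-ala against Vehicle kidneys, which is 18.2% called, where 11.5% of all tested genes were called, 6.53% of them as higher and 4.92% as lower. The risers were Gpi1, Aldoa and Pklr in glycolysis, Cs and Dlst in the cycle, and Got1. Their log2 fold changes ran from 0.19 for Gpi1 to 0.41 for Pklr. The median over the 33 genes was 0.082, where that over all tested genes was 0.0011. At an unadjusted p under 0.05, limma gave 11 higher and 0 lower, against 26.5% of all tested genes in either direction, and limma's voom on the scaled counts called 6 higher and 0 lower. In 8 of the 33 the D-ala and Vehicle libraries did not overlap, where 10.9% of all tested genes showed this. After quantile normalization 3 genes of the set were called, Aldoa and Pklr higher and Idh3a lower, and among all calls 46.95% were higher against 57.0% as reported. Without D-ala replicate 1 the count was 2 (Aldoa and Dlst), and without Vehicle replicate 4 it was 3 (Pfkfb3, Aldoa and Dlst). The count was 6 with and without L-ala replicate 5. Markers of the proximal tubule (4 higher), the collecting duct (3 higher, 1 lower), the thick limb and distal tubule (2 higher) and macrophages (3 lower) were called in the same comparison, and their part in these differences was not tested.

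L-alanine was accompanied by higher transcripts of both lactate dehydrogenase subunits and both malate dehydrogenases. In L-ala against Vehicle kidneys 8 of the 33 genes rose and 0 fell, 24.2%, where 11% of all tested genes were called, 6.48% as higher and 4.53% as lower. They were Gpi1, Aldoa, Ldha, Ldhb, Suclg2, Mdh2, Mdh1 and Got1, with log2 fold changes between 0.18 and 0.34. The median of the 33 was 0.068 and that of all tested genes 0.0070, and 5 genes had libraries that did not overlap, where the background was 7.24%. At an unadjusted p under 0.05, limma gave 11 higher and 1 lower (Hk1), against 30.5% of all tested genes, and voom called 8 higher and 0 lower. These calls depended on the scaling: after quantile normalization only Idh3b was called, as lower, the median of the 33 was -0.061, and 40.7% of all calls were higher against 58.8% as reported. With each library's trend with gene length removed, Gpi1, Ldhb and Suclg2 were called. Without L-ala replicate 4, or without Vehicle replicate 4, 2 genes were called (Ldhb and Suclg2), and 4 genes without L-ala replicate 1 or 3 or without Vehicle replicate 1 and 5 without Vehicle replicate 2. Without L-ala replicate 5 the count was 10, with Tpi1 and Pdhb added. The summed proximal tubule markers, mostly Kap, and the summed neutrophil markers did not overlap between L-ala and Vehicle libraries either. Nor did the summed red blood cell markers, and the part of these markers in the differences was not tested.

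Set directly against each other, the treatments gave calls for Pfkfb3, Pklr and Suclg2. In D-ala against L-ala kidneys 2 genes were higher and 1 lower, 9.09% of the 33, where 13.7% of all tested genes were called, 7.01% as higher and 6.66% as lower, so the share called did not stand above the background. The median of the 33 was -0.010 and that of all tested genes -0.0090. Suclg2 and Mdh1 were the 2 genes whose libraries did not overlap, where 9.11% of all tested genes showed this. Without D-ala replicate 2 or 3, or in a fit of the 2 groups alone, 0 genes were called by limma, with 10, 6 and 8 genes at an unadjusted p under 0.05. As reported, 9 of the 33 had such a p, against 30.8% of all tested genes, and voom called 3: Pfkfb3 and Pklr as higher and Mdh1, not Suclg2, as lower. Quantile normalization gave 5, Aldoa, Pklr, Cs, Idh3g and Dlst, all higher in D-ala kidneys. The count was 1 without D-ala replicate 1, 4 or 5 or without L-ala replicate 1, 2 or 4. Without L-ala replicate 5 it was 8: Pfkfb3, Pklr, Cs and Dlst were higher in D-ala kidneys, and Pgk1, Ldhb, Suclg2 and Mdh1 lower. Markers of the proximal tubule (1 higher, 2 lower), the thick limb and distal tubule (1 higher) and podocytes (1 higher) were called in D-ala against L-ala. So were markers of the collecting duct (1 lower), red blood cells (1 lower), neutrophils (2 lower) and macrophages (2 lower). The summed proximal tubule markers, mostly Kap, and the summed neutrophil markers did not overlap between D-ala and L-ala libraries. The part of these markers in the differences was not tested. The comparisons with Vehicle use the same Vehicle samples, so their values are given side by side and their overlap is not read.

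**Figure D3:**
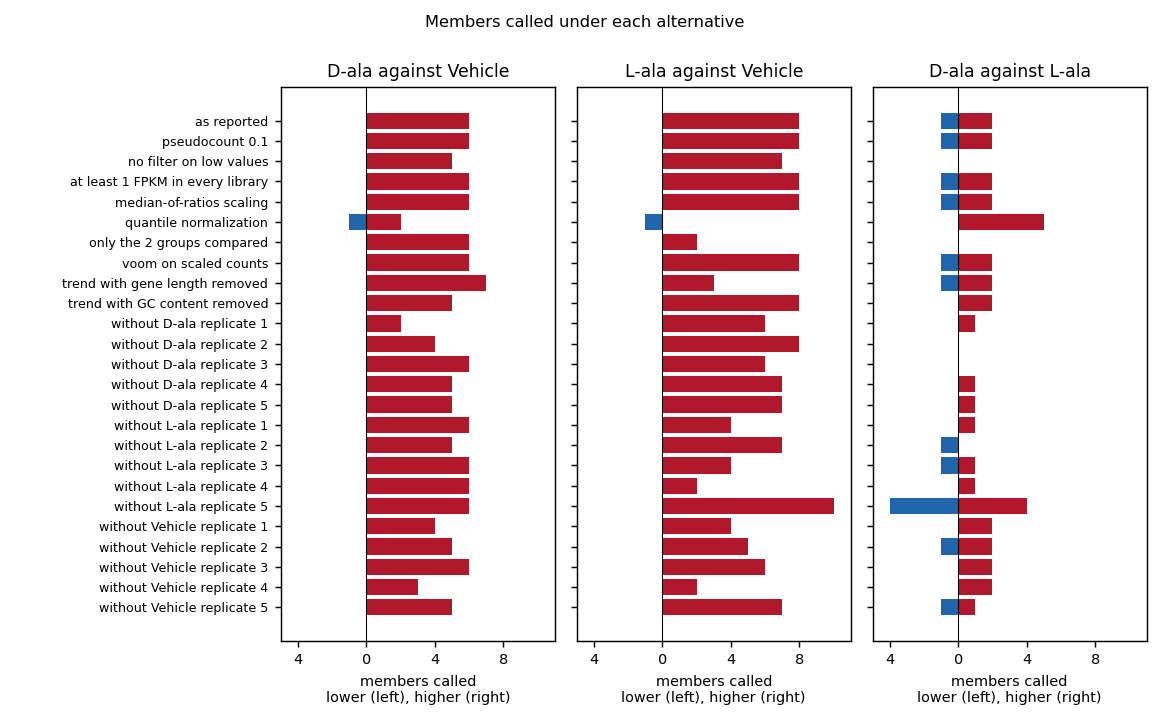
Number of the 33 tested genes called as reported and under each of the 24 alternatives, for each of the 3 comparisons; red bars to the right count higher genes, blue bars to the left lower genes, and an empty line means 0. Under quantile normalization the counts were 3, 1 and 5, and without L-ala replicate 5 they were 6, 10 and 8.

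**Figure D4:**
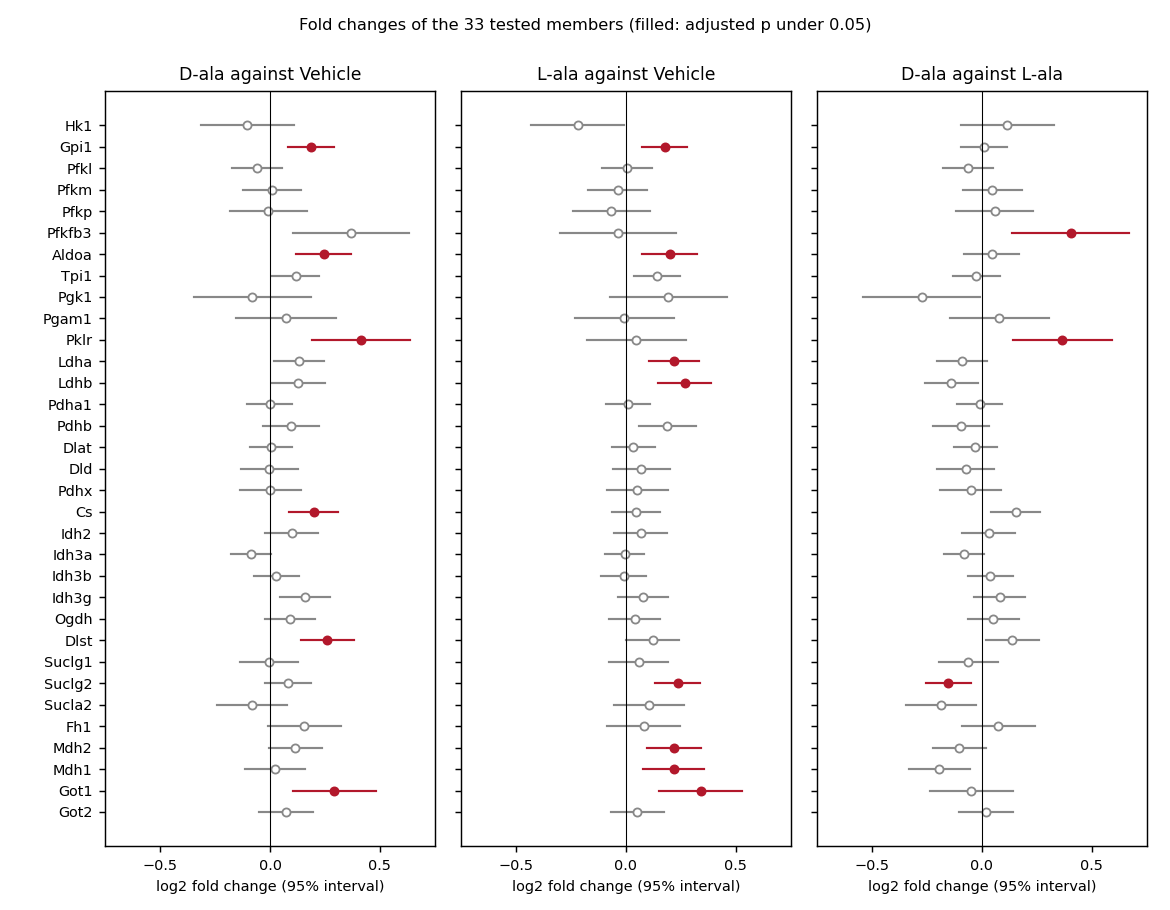
Log2 fold change of each of the 33 tested genes with its 95% interval, with 1 panel per comparison; filled red points passed an adjusted p of 0.05. All filled points of the comparisons with Vehicle lie right of 0, and Pfkfb3, Pklr and Suclg2 are filled in D-ala against L-ala.

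Hexokinase traps glucose inside the cell. Hk1, the housekeeping form (chromosome 10, 62268855 to 62379908, GENCODE M21 on GRCm38), was at 26.6, 22.7, 26.2, 32.3 and 23.04 FPKM in D-ala, 26.9, 26.5, 22.2, 18.9 and 26.1 FPKM in L-ala and 29.2, 28.4, 26.7, 29.8 and 26.1 FPKM in Vehicle kidneys. The groups overlapped, with the highest level in D-ala replicate 4 and the lowest in L-ala replicate 4. The log2 fold change was -0.10 (95% interval -0.32 to 0.11, adjusted p = 0.555) for D-ala against Vehicle, -0.22 (95% interval -0.43 to -0.0082, adjusted p = 0.150) for L-ala against Vehicle and 0.12 (95% interval -0.10 to 0.33, adjusted p = 0.457) for D-ala against L-ala, so none passed. Hk2, the insulin-responsive form of muscle and fat, was at 0.535, 0.348, 0.413, 0.0890 and 0.351 FPKM in D-ala, 0.183, 0.110, 0.0730, 0.224 and 0.251 FPKM in L-ala and 0.114, 0.0720, 0.104, 0.498 and 0.228 FPKM in Vehicle kidneys. All libraries were below 1 FPKM, at 4 to 29 scaled counts, and Hk2 was not tested.

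Gpi1, glucose phosphate isomerase, which converts glucose phosphate to fructose phosphate in either direction (chromosome 7, 34201330 to 34230336), was at 103, 101, 93.9, 94.6 and 99.0 FPKM in D-ala, 98.3, 93.0, 100.3, 99.6 and 96.3 FPKM in L-ala and 93.3, 85.9, 85.2, 80.2 and 86.5 FPKM in Vehicle kidneys. All 5 D-ala libraries and 4 of 5 L-ala libraries lay above the highest Vehicle library, which D-ala replicate 3 passed only narrowly. It rose in D-ala against Vehicle (log2 fold change 0.19, SE 0.049, adjusted p = 0.0214) and in L-ala against Vehicle (log2 fold change 0.18, SE 0.049, adjusted p = 0.0336). D-ala against L-ala gave 0.0100 (95% interval -0.093 to 0.11, adjusted p = 0.914). The D-ala call was lost without D-ala replicate 1 (adjusted p = 0.0609), without D-ala replicate 2 (adjusted p = 0.0505) and without Vehicle replicate 4 (adjusted p = 0.0647). The L-ala call was lost when any 1 of 6 libraries was left out, L-ala replicate 1, 3 or 4 or Vehicle replicate 2, 3 or 4 (adjusted p 0.0569 to 0.0990). After quantile normalization both calls were lost, with log2 fold changes of 0.12 for D-ala (adjusted p = 0.0947) and 0.017 for L-ala (adjusted p = 0.852), and the L-ala call was also lost with the 2 groups alone (adjusted p = 0.0751).

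Phosphofructokinase commits sugar to glycolysis, and its muscle, liver and platelet subunits mix in the same tetramers. Pfkm (chromosome 15, 98092589 to 98132451) was at 27.4, 26.4, 25.8, 26 and 25.996 FPKM in D-ala, 26.3, 24.3, 22.8, 26.3 and 27.7 FPKM in L-ala and 27.8, 26.1, 27.8, 26.9 and 22.4 FPKM in Vehicle kidneys. Pfkl (chromosome 10, 77986947 to 78010083) was at 21.4, 19.8, 20.1, 20.7 and 19.9 FPKM in D-ala, 23.1, 22.9, 19.5, 20.1 and 21.3 FPKM in L-ala and 21.9, 21.3, 21.7, 21.4 and 19.9 FPKM in Vehicle kidneys. Pfkp (chromosome 13, 6579768 to 6648777) was at 11.1, 11.4, 12.6, 12.6 and 12.4 FPKM in D-ala, 13.05, 12.01, 10.1, 10.8 and 11.86 FPKM in L-ala and 13.2, 13.2, 11.68, 13.1 and 9.75 FPKM in Vehicle kidneys. The groups overlapped for all 3 subunits, and none passed in any comparison. For D-ala against Vehicle the log2 fold changes were 0.0090 (95% interval -0.12 to 0.14, adjusted p = 0.953) for Pfkm, -0.059 (95% interval -0.17 to 0.055, adjusted p = 0.532) for Pfkl and -0.0075 (95% interval -0.18 to 0.17, adjusted p = 0.971) for Pfkp. For L-ala against Vehicle they lay between -0.066 and 0.0059, and for D-ala against L-ala between -0.065 and 0.059. Of the summed FPKM of the 3 subunits, Pfkm made up a median of 44.6% in D-ala, 43.5% in L-ala and 43.9% in Vehicle kidneys. Over all libraries the shares were 41.1% to 46.1% for Pfkm, 34.1% to 38.7% for Pfkl and 18.5% to 21.7% for Pfkp, so the order of the subunits was the same in every library.

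Pfkfb3, the bifunctional enzyme whose kinase activity dominates and which thereby speeds phosphofructokinase (chromosome 2, 11471433 to 11554077), was at 5.08, 7.10, 7.56, 5.78 and 5.57 FPKM in D-ala, 3.91, 3.96, 3.80, 5.33 and 5.24 FPKM in L-ala and 4.96, 3.76, 3.66, 5.92 and 4.70 FPKM in Vehicle kidneys. All 5 D-ala libraries lay above the Vehicle mean but 2 of 5 above the highest Vehicle library, and 4 of 5 lay above the highest L-ala library. Pfkfb3 was higher in D-ala than in L-ala kidneys (log2 fold change 0.40, SE 0.13, adjusted p = 0.0425). That call was lost when any 1 of 8 libraries was left out (D-ala replicate 2, 3, 4 or 5, L-ala replicate 1, 2 or 3 or Vehicle replicate 5; adjusted p 0.0501 to 0.107). It was also lost with no filter on low values, after quantile normalization, with the 2 groups alone and with the length trend removed (adjusted p 0.0523 to 0.0822). Against Vehicle, the D-ala log2 fold change was 0.37 (95% interval 0.10 to 0.63, adjusted p = 0.0659) and the L-ala one -0.036 (95% interval -0.30 to 0.23, adjusted p = 0.871). The D-ala one passed without Vehicle replicate 4 (adjusted p = 0.0385; 0.0385 to 0.154 over 24 alternatives, 9 of processing and 15 that leave out 1 library).

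The promoters of Pfkfb3, Pklr and Ldha are shown because these genes passed in a comparison and are textbook targets of transcription factors that were also measured here: hypoxia-inducible factor for Pfkfb3 and Ldha, Myc for Ldha, and the glucose sensor ChREBP for Pklr. Each window runs from 250 bases before to 50 bases after a RefSeq start on GRCm38.p6, 5′ to 3′ on the gene's strand. Capitals mark any match, on either strand, to CACGTG (the E-box of Myc), ACGTG or GCGTG (the core of hypoxia-inducible factor sites, which CACGTG contains), TGACG (the core of cAMP-responsive elements) or CACGGG (from the ChREBP element known from the liver Pklr promoter, searched after the windows were seen). The Pfkfb3 windows are chr2:11553880-11554179, minus strand, and chr2:11502041-11502340, minus strand. The windows of Pklr (its downstream start) and Ldha (its upstream start) are chr3:89136373-89136672, plus strand, and chr7:46845554-46845853, plus strand.
Pfkfb3 start 1: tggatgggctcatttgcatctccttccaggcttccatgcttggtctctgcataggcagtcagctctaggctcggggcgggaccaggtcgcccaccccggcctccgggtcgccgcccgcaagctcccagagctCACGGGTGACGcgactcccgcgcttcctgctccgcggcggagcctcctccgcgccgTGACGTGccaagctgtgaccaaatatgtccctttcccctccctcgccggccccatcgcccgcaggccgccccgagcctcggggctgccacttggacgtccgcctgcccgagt
Pfkfb3 start 2: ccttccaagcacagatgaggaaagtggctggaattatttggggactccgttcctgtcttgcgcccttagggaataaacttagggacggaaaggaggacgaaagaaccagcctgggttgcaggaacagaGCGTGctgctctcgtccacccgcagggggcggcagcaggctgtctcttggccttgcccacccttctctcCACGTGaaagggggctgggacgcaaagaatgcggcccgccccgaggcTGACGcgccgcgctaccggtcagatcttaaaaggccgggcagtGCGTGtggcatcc
Pklr start 2: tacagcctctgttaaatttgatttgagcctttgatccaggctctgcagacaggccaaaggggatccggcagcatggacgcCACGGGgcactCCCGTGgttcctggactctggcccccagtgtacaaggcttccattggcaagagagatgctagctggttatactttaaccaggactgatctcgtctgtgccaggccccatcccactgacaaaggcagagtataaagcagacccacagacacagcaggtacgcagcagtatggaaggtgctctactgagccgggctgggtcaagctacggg
Ldha start 1: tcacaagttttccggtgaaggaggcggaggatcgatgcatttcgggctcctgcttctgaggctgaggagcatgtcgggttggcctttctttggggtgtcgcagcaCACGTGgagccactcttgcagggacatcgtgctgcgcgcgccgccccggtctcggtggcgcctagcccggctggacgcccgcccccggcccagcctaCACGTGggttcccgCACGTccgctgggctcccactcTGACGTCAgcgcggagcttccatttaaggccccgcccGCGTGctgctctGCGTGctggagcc
The downstream Pklr window held CACGGG followed after 5 bases by CCCGTG, its reverse complement, and no match to the other motifs. The Ldha window held 2 matches to CACGTG, 7 to ACGTG or GCGTG and 2 to TGACG. Both strands were counted, so each CACGTG is also counted 2 times among the matches to ACGTG or GCGTG. Pfkfb3 start 1 held 1 match to ACGTG or GCGTG, 2 to TGACG and 1 to CACGGG. Pfkfb3 start 2 held 1 match to CACGTG, 4 to ACGTG or GCGTG and 1 to TGACG. Of the windows of these genes that are not shown, the upstream Pklr one held no match to any motif. The downstream Ldha one held 0 matches to CACGTG, 2 to ACGTG or GCGTG and 1 to TGACG. Of 32851 RefSeq windows of this length, 7.15% held CACGTG, 43.8% ACGTG or GCGTG, 20.8% TGACG and 10.1% CACGGG. The windows shown were picked and do not stand for the other genes that passed. The windows of Gpi1, Cs, Dlst and Suclg2 held no match to any of these motifs. Those of Aldoa, Ldhb, Mdh1 and Got1 each held at most 1, to ACGTG or GCGTG. The Mdh2 window held 1 to ACGTG or GCGTG and 2 to TGACG. A match is a run of letters and was not tested as a binding site. Whether these factors acted on these genes was not tested either.

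Pyruvate kinase makes pyruvate and ATP in the last step of glycolysis. Pklr, the liver and red cell gene, which is also expressed in the proximal tubule (chromosome 3, 89136142 to 89146784), was at 21.1, 24.4, 19.1, 15.8 and 17.5 FPKM in D-ala, 16.1, 13.5, 15.8, 13.2 and 15.6 FPKM in L-ala and 16.8, 13.8, 14.95, 11.6 and 14.8 FPKM in Vehicle kidneys. In 4 of 5 D-ala libraries the level exceeded every L-ala and every Vehicle library, and D-ala replicate 4 was the exception. Pklr rose in D-ala against Vehicle (log2 fold change 0.41, SE 0.11, adjusted p = 0.0190) and was higher in D-ala than in L-ala kidneys (log2 fold change 0.37, SE 0.11, adjusted p = 0.0331). L-ala against Vehicle gave 0.048 (95% interval -0.18 to 0.27, adjusted p = 0.792). The D-ala call against Vehicle was lost without D-ala replicate 1 (adjusted p = 0.0522) and without Vehicle replicate 4 (adjusted p = 0.0589), and that against L-ala without any 1 of 5 libraries, D-ala replicate 1, 2 or 3 or L-ala replicate 2 or 4 (adjusted p 0.0606 to 0.0906). After quantile normalization both D-ala calls held (adjusted p = 0.0218 against Vehicle and 0.0369 against L-ala). The call against L-ala was lost with no filter on low values (adjusted p = 0.0537) and in a fit of the 2 groups alone (adjusted p = 0.0505). The muscle-type gene Pkm, listed under its older symbol Pkm2, averaged 81.7 ± 5.07 FPKM in D-ala, 77.8 ± 3.37 FPKM in L-ala and 74.8 ± 2.99 FPKM in Vehicle kidneys (mean ± SD, n = 5 each, as for all such values), with log2 fold changes of 0.12 (95% interval 0.012 to 0.24, adjusted p = 0.143), 0.054 (95% interval -0.058 to 0.17, adjusted p = 0.511) and 0.069 (95% interval -0.042 to 0.18, adjusted p = 0.390) for D-ala and then L-ala against Vehicle and, last, D-ala against L-ala, so none passed. The ratio of Pkm to Pklr FPKM had a median of 4.29 in D-ala, 5.09 in L-ala and 5.14 in Vehicle kidneys. Hcn3 overlaps Pklr on the opposite strand.

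Between these steps lie the enzymes that cleave and oxidise the sugar. Aldoa, which splits fructose bisphosphate (chromosome 7, 126795234 to 126800751; the annotation has 2 entries of that name), was at 812, 838, 807, 769.7 and 838 FPKM in D-ala, 822, 761, 876, 778 and 712 FPKM in L-ala and 709.6, 664, 695, 648 and 717 FPKM in Vehicle kidneys. Every D-ala library lay above every Vehicle library, while L-ala replicate 5 lay below the highest Vehicle library. Aldoa rose in D-ala against Vehicle (log2 fold change 0.24, SE 0.059, adjusted p = 0.0134), a call that held under all 24 alternatives. It also rose in L-ala against Vehicle (log2 fold change 0.20, SE 0.059, adjusted p = 0.0411), but that call was lost without any 1 of 9 libraries (D-ala replicate 1 or 3, L-ala replicate 1, 3 or 4, or Vehicle replicate 1, 2, 3 or 4; adjusted p 0.0545 to 0.111), and after quantile normalization the log2 fold change was -0.026 (adjusted p = 0.793). No filter, the 2 groups alone and removal of the length trend also lost it (adjusted p 0.0506 to 0.0919). D-ala against L-ala gave 0.044 (95% interval -0.080 to 0.17, adjusted p = 0.645), and 0.19 after quantile normalization, which passed (adjusted p = 0.0295). Aldoart1, a copy that shares 6.27% of the Aldoa 50-base stretches, was listed at 18.6 FPKM.

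Tpi1, which interconverts the triose phosphates, averaged 507 ± 25.6 FPKM in D-ala, 515 ± 17.5 FPKM in L-ala and 467 ± 17.3 FPKM in Vehicle kidneys. Its D-ala and L-ala libraries all lay above the Vehicle libraries, and neither comparison passed (log2 fold change 0.12 (95% interval 0.011 to 0.22, adjusted p = 0.145) for D-ala and 0.14 (95% interval 0.036 to 0.25, adjusted p = 0.0734) for L-ala). Without L-ala replicate 5 the L-ala comparison passed (adjusted p = 0.0422; 0.0422 to 0.493 over 24 alternatives), and after quantile normalization its log2 fold change was -0.058. Pgk1, phosphoglycerate kinase, averaged 18.6 ± 2.50 FPKM in D-ala, 22.9 ± 3.90 FPKM in L-ala and 19.8 ± 3.28 FPKM in Vehicle kidneys. Pgam1, phosphoglycerate mutase, averaged 10.9 ± 1.06 FPKM in D-ala, 10.4 ± 2.18 FPKM in L-ala and 10.3 ± 0.966 FPKM in Vehicle kidneys. Neither passed in any comparison, and both are among the genes with much shared sequence. Without L-ala replicate 5, Pgk1 was lower in D-ala than in L-ala kidneys (log2 fold change -0.39, adjusted p = 0.0172, against -0.27 and 0.149 with it).

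Lactate dehydrogenase tetramers of Ldha favour lactate formation and those of Ldhb its oxidation. Ldhb (chromosome 6, 142490249 to 142507957) was at 1027, 988, 978, 1005 and 1006 FPKM in D-ala, 1113, 1071, 1080.4, 1238 and 1018 FPKM in L-ala and 882, 914, 971, 862 and 952 FPKM in Vehicle kidneys. Ldha (chromosome 7, 46841475 to 46855627) was at 474, 539, 488, 478 and 496 FPKM in D-ala, 528, 549, 488, 553 and 515 FPKM in L-ala and 450.4, 463, 464, 423 and 460.1 FPKM in Vehicle kidneys. For both genes every L-ala and every D-ala library lay above every Vehicle library. Both rose in L-ala against Vehicle, Ldhb with log2 fold change 0.27, SE 0.057, adjusted p = 0.0128 and Ldha with log2 fold change 0.22, SE 0.054, adjusted p = 0.0213. The Ldhb call held without any single library, and the Ldha call did not hold without L-ala replicate 4 or without Vehicle replicate 4 (adjusted p = 0.0544 and 0.0686). In D-ala against Vehicle neither passed, at 0.13 (95% interval 0.0074 to 0.25, adjusted p = 0.162) for Ldhb and 0.13 (95% interval 0.016 to 0.24, adjusted p = 0.129) for Ldha. D-ala against L-ala gave -0.14 (95% interval -0.26 to -0.018, adjusted p = 0.112) for Ldhb and -0.090 (95% interval -0.20 to 0.024, adjusted p = 0.267) for Ldha; without L-ala replicate 5 Ldhb was lower in D-ala than in L-ala kidneys (-0.17, adjusted p = 0.0393). After quantile normalization the L-ala calls were lost, with log2 fold changes of 0.048 for Ldhb and 0.016 for Ldha, and the Ldha call was also lost with the 2 groups alone (adjusted p = 0.0505) and with the length trend removed (adjusted p = 0.0670). The ratio of Ldhb to Ldha FPKM had a median of 2.03 in D-ala, 2.11 in L-ala and 2.04 in Vehicle kidneys and stayed between 1.83 and 2.24 in all 15 libraries.

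No subunit of the pyruvate dehydrogenase complex, the gate from glycolysis into the mitochondrion, passed in any comparison. Pdha1, the catalytic subunit that kinases switch off (chromosome X, 160122209 to 160138413), was at 288, 282, 280.0, 287 and 263 FPKM in D-ala, 273, 279, 276, 278 and 304 FPKM in L-ala and 279, 264, 290.3, 281 and 285 FPKM in Vehicle kidneys. The groups overlapped, and the log2 fold changes were -0.00087 (95% interval -0.10 to 0.10, adjusted p = 0.994) for D-ala against Vehicle, 0.0093 (95% interval -0.093 to 0.11, adjusted p = 0.913) for L-ala against Vehicle and -0.010 (95% interval -0.11 to 0.092, adjusted p = 0.909) for D-ala against L-ala. Its partner Pdhb averaged 113 ± 6.36 FPKM in D-ala, 121 ± 10.1 FPKM in L-ala and 106 ± 5.05 FPKM in Vehicle kidneys. Its L-ala libraries all lay above the Vehicle libraries without passing (0.19 (95% interval 0.061 to 0.32, adjusted p = 0.0536)); it passed without L-ala replicate 5 (adjusted p = 0.0289) and without D-ala replicate 2 (0.0492; 0.0289 to 0.713 over 24 alternatives). Dlat, the acetyltransferase core, averaged 44.2 ± 1.499 FPKM in D-ala, 45.1 ± 1.60 FPKM in L-ala and 44.1 ± 1.98 FPKM in Vehicle kidneys. Dld, the dehydrogenase shared with the ketoglutarate complex, averaged 206 ± 8.08 FPKM in D-ala, 218 ± 20.9 FPKM in L-ala and 207 ± 6.53 FPKM in Vehicle kidneys. Pdhx, which anchors it to the core, averaged 22.2 ± 0.931 FPKM in D-ala, 23.1 ± 2.596 FPKM in L-ala and 22.2 ± 0.984 FPKM in Vehicle kidneys. For Dlat, Dld and Pdhx the D-ala log2 fold changes against Vehicle were all within -0.0028 and 0.0045.

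Citrate synthase and the ketoglutarate dehydrogenase complex admit carbon to the cycle and drive it past its oxidative steps. Cs, citrate synthase (chromosome 10, 128337734 to 128362479), was at 126, 122, 122, 119 and 121 FPKM in D-ala, 109.9, 106, 111, 102 and 119.9 FPKM in L-ala and 98.1, 107, 113, 104 and 109.9 FPKM in Vehicle kidneys. All 5 D-ala libraries lay above every Vehicle library and 4 of 5 above every L-ala library. Cs rose in D-ala against Vehicle (log2 fold change 0.20, SE 0.052, adjusted p = 0.0218), a call that was lost without D-ala replicate 1 (adjusted p = 0.0588), without Vehicle replicate 1 (adjusted p = 0.0554) and without Vehicle replicate 4 (adjusted p = 0.0551) and after quantile normalization (adjusted p = 0.143). L-ala against Vehicle gave 0.045 (95% interval -0.066 to 0.15, adjusted p = 0.589) and D-ala against L-ala 0.15 (95% interval 0.043 to 0.26, adjusted p = 0.0603), which passed without L-ala replicate 5 (adjusted p = 0.0141; 0.0141 to 0.147 over 24 alternatives) and after quantile normalization (0.25, adjusted p = 0.0188). Csl, a copy of Cs that shares 4% of its 50-base stretches, was listed at 8.41 FPKM.

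Dlst, the succinyltransferase core of the ketoglutarate dehydrogenase complex (chromosome 12, 85110833 to 85134845), was at 237, 224, 234, 224 and 227 FPKM in D-ala, 202, 207, 195, 199 and 241 FPKM in L-ala and 190.3, 199, 195, 179.7 and 193 FPKM in Vehicle kidneys. Every D-ala library lay above every Vehicle library, and L-ala replicate 5 was the highest of all 15. Dlst rose in D-ala against Vehicle (log2 fold change 0.26, SE 0.057, adjusted p = 0.00828), which held without any single library and was lost after quantile normalization (adjusted p = 0.114). L-ala against Vehicle gave 0.12 (95% interval 0.00076 to 0.24, adjusted p = 0.162), and D-ala against L-ala 0.14 (95% interval 0.017 to 0.26, adjusted p = 0.113). Dlst was higher in D-ala than in L-ala kidneys without L-ala replicate 5 (0.19, adjusted p = 0.00765) and after quantile normalization (0.23, adjusted p = 0.0416). Ogdh, the dehydrogenase of the same complex (chromosome 11, 6291633 to 6356642), was at 119, 109, 111, 110.5 and 108 FPKM in D-ala, 105, 117, 101, 100.04 and 114 FPKM in L-ala and 99.0, 108, 106, 102 and 107 FPKM in Vehicle kidneys. It did not pass in any comparison, at 0.091 (95% interval -0.024 to 0.21, adjusted p = 0.301) for D-ala against Vehicle, 0.039 (95% interval -0.076 to 0.15, adjusted p = 0.659) for L-ala against Vehicle and 0.052 (95% interval -0.063 to 0.17, adjusted p = 0.545) for D-ala against L-ala.

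Succinyl-CoA synthetase pairs the shared subunit Suclg1 with Suclg2, which makes GTP, or Sucla2, which makes ATP. Suclg2 (chromosome 6, 95473009 to 95718800) was at 157, 156, 148, 157 and 151 FPKM in D-ala, 171, 162, 170.2, 184 and 169 FPKM in L-ala and 144, 136, 148, 146 and 154 FPKM in Vehicle kidneys. The L-ala libraries lay above all D-ala and all Vehicle libraries. Suclg2 rose in L-ala against Vehicle (log2 fold change 0.23, SE 0.049, adjusted p = 0.0111), which held without any single library and was lost after quantile normalization (log2 fold change 0.057, adjusted p = 0.432). It was lower in D-ala than in L-ala kidneys (log2 fold change -0.15, SE 0.049, adjusted p = 0.0463), a call lost without any 1 of 11 libraries, each of the D-ala libraries among them (adjusted p 0.0554 to 0.114), and kept without L-ala replicate 2 or 5 or Vehicle replicate 2 or 5. It was also lost in 5 of the 9 processing alternatives: with no filter on low values (adjusted p = 0.0526), in a fit of the 2 groups alone (0.0813), with voom (0.0532), with the GC trend removed (0.0746) and after quantile normalization (log2 fold change -0.055, adjusted p = 0.428). D-ala against Vehicle gave 0.082 (95% interval -0.021 to 0.18, adjusted p = 0.301). Sucla2 averaged 145 ± 5.17 FPKM in D-ala, 166 ± 21.01 FPKM in L-ala and 154 ± 10.3 FPKM in Vehicle kidneys. Suclg1 averaged 374 ± 26.5 FPKM in D-ala, 390.0 ± 24.1 FPKM in L-ala and 375 ± 22.1 FPKM in Vehicle kidneys, and neither passed. The ratio of Suclg2 to Sucla2 FPKM was 1.03 to 1.09 in D-ala, 0.933 to 1.198 in L-ala and 0.887 to 1.07 in Vehicle kidneys, so the groups overlapped.

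The isocitrate dehydrogenases of the set, Idh2, Idh3a, Idh3b and Idh3g, did not pass in any comparison as reported. The cytosolic Idh1 is not in the set and is given below with other enzymes. Idh2, the NADP-linked mitochondrial enzyme, averaged 477 ± 32.98 FPKM in D-ala, 466.1 ± 12.1 FPKM in L-ala and 445 ± 24.7 FPKM in Vehicle kidneys. Of the NAD-linked enzyme, the catalytic subunit Idh3a averaged 81.2 ± 2.70 FPKM in D-ala, 86.0 ± 2.63 FPKM in L-ala and 86.3 ± 2.08 FPKM in Vehicle kidneys. The regulatory subunit Idh3b averaged 318 ± 8.27 FPKM in D-ala, 309.8 ± 10.3 FPKM in L-ala and 312 ± 16.03 FPKM in Vehicle kidneys. The regulatory subunit Idh3g averaged 310.4 ± 6.73 FPKM in D-ala, 294 ± 13.6 FPKM in L-ala and 279 ± 19.3 FPKM in Vehicle kidneys. Idh3g was the subunit whose D-ala libraries all lay above the Vehicle libraries (0.16 (95% interval 0.044 to 0.27, adjusted p = 0.0683)), while Idh3a gave -0.088 (95% interval -0.18 to 0.0026, adjusted p = 0.203) in the same comparison. With the length trend removed Idh3g passed in D-ala against Vehicle (adjusted p = 0.0168). It also passed as higher in D-ala than in L-ala kidneys with that trend removed and after quantile normalization (lowest adjusted p = 0.00744). After quantile normalization Idh3a passed as lower in D-ala than in Vehicle kidneys (adjusted p = 0.0306). Idh3b then passed as lower in L-ala than in Vehicle kidneys (adjusted p = 0.0287). The direction of Idh3b in L-ala against Vehicle, -0.011 as reported, turned to 0.011 without L-ala replicate 1 and 0.020 without Vehicle replicate 5. Fh1, fumarase, averaged 244 ± 21.2 FPKM in D-ala, 231 ± 18.2 FPKM in L-ala and 219 ± 22.4 FPKM in Vehicle kidneys and did not pass (0.16 (95% interval -0.010 to 0.32, adjusted p = 0.219) for D-ala against Vehicle).

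Malate dehydrogenases and aspartate aminotransferases form the malate-aspartate shuttle, which moves electrons from cytosolic NADH into mitochondria, and they also move carbon out for glucose synthesis. Mdh1, the cytosolic malate dehydrogenase (chromosome 11, 21556787 to 21572367), was at 1229, 1219.5, 1229, 1200.3 and 1211 FPKM in D-ala, 1348, 1333, 1409, 1642 and 1263 FPKM in L-ala and 1191, 1152, 1296, 1132 and 1229.5 FPKM in Vehicle kidneys. The D-ala libraries lay in a narrow band below every L-ala library, and L-ala replicate 4 was the highest. Mdh1 rose in L-ala against Vehicle (log2 fold change 0.22, SE 0.065, adjusted p = 0.0446), a call lost without any 1 of 13 libraries (adjusted p 0.0506 to 0.118) and kept without L-ala replicate 5 or Vehicle replicate 3. D-ala against Vehicle gave 0.023 (95% interval -0.12 to 0.16, adjusted p = 0.871). D-ala against L-ala gave -0.19 (95% interval -0.33 to -0.055, adjusted p = 0.0589), which passed without L-ala replicate 5 (-0.23, adjusted p = 0.0171) and with voom (-0.19, adjusted p = 0.0485). After quantile normalization the L-ala log2 fold change against Vehicle was 0.088 (adjusted p = 0.222), and that call was also lost with no filter, with the 2 groups alone and with the length trend removed.

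Mdh2, the mitochondrial enzyme of the cycle and the shuttle (chromosome 5, 135778480 to 135790398), was at 586, 567.6, 587, 552 and 588 FPKM in D-ala, 612, 591, 663, 657 and 575 FPKM in L-ala and 505, 537, 550.1, 492.97 and 578 FPKM in Vehicle kidneys. It rose in L-ala against Vehicle (log2 fold change 0.22, SE 0.058, adjusted p = 0.0284), where 4 of 5 L-ala libraries lay above all Vehicle libraries, but after quantile normalization the log2 fold change was -0.0039. It did not pass with the 2 groups alone (adjusted p = 0.0750) or with the length trend removed (0.10, adjusted p = 0.106). The call was lost without L-ala replicate 1, 3 or 4 or Vehicle replicate 1 or 4 (adjusted p 0.0538 to 0.0867). D-ala against Vehicle gave 0.12 (95% interval -0.0069 to 0.24, adjusted p = 0.216) and D-ala against L-ala -0.10 (95% interval -0.22 to 0.019, adjusted p = 0.237). The ratio of Mdh1 to Mdh2 FPKM had a median of 2.10 in D-ala, 2.203 in L-ala and 2.30 in Vehicle kidneys.

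Got1, cytosolic aspartate aminotransferase (chromosome 19, 43499752 to 43524605), was at 96.5, 94.9, 78.2, 83.2 and 81.0 FPKM in D-ala, 76.4, 87.8, 85.0, 99.9 and 100.2 FPKM in L-ala and 63.4, 71.1, 81.5, 63.6 and 73.9 FPKM in Vehicle kidneys. In D-ala kidneys 3 of 5 libraries and in L-ala kidneys 4 of 5 lay above all Vehicle libraries. Got1 rose under both treatments, in D-ala against Vehicle (log2 fold change 0.29, SE 0.089, adjusted p = 0.0439) and in L-ala against Vehicle (log2 fold change 0.34, SE 0.089, adjusted p = 0.0272). The D-ala call was lost without any 1 of 9 libraries (D-ala replicate 1, 2, 4 or 5, L-ala replicate 2 or Vehicle replicate 1, 2, 4 or 5; adjusted p 0.0525 to 0.115), and the L-ala call without L-ala replicate 4 (adjusted p = 0.0795), without Vehicle replicate 1 (adjusted p = 0.0589) and without Vehicle replicate 4 (adjusted p = 0.0837). After quantile normalization neither call passed, at 0.23 for D-ala (adjusted p = 0.0759) and 0.20 for L-ala (adjusted p = 0.158). The D-ala call was also lost with no filter and with the GC trend removed, and the L-ala call with the 2 groups alone and with the length trend removed (adjusted p 0.0504 to 0.0656). D-ala against L-ala gave -0.048 (95% interval -0.24 to 0.14, adjusted p = 0.752). Got2, the mitochondrial enzyme, averaged 72.3 ± 4.42 FPKM in D-ala, 71.3 ± 3.41 FPKM in L-ala and 68.8 ± 4.63 FPKM in Vehicle kidneys and did not pass, at 0.072 (95% interval -0.049 to 0.19, adjusted p = 0.465) for D-ala against Vehicle and 0.052 (95% interval -0.069 to 0.17, adjusted p = 0.563) for L-ala against Vehicle.

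**Figure D5:**
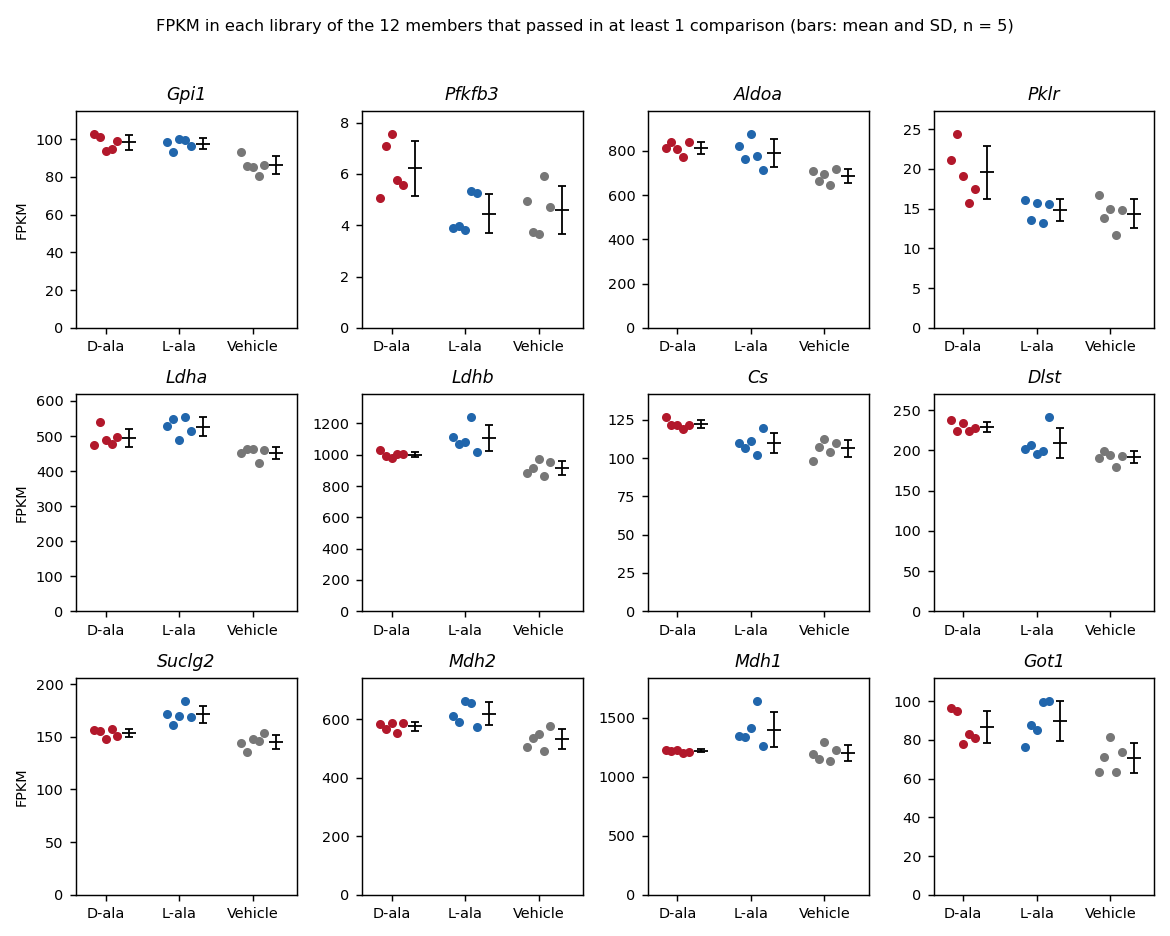
FPKM in each library of the 12 genes that passed in at least 1 comparison, with D-ala, L-ala and Vehicle from left to right; points are libraries and bars the mean and SD (n = 5). D-ala libraries lie above all Vehicle libraries for Gpi1, Aldoa, Ldha, Ldhb, Cs and Dlst, and L-ala libraries lie above all Vehicle libraries for Ldha, Ldhb and Suclg2.

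Other enzymes of the same pathways showed small changes too. Of 17 other glycolytic isoforms, 11 were tested: 2 rose in D-ala against Vehicle, 0 passed in L-ala against Vehicle (4 at an unadjusted p under 0.05, and 0 by voom) and 2 were higher in D-ala than in L-ala kidneys. Of all tested genes 11.5%, 11% and 13.7% were called in these comparisons, and the same shares stand behind the counts of the other lists. Pfkfb4, a relative of Pfkfb3, averaged 3.73 ± 0.700 FPKM in D-ala, 2.603 ± 0.306 FPKM in L-ala and 2.66 ± 0.339 FPKM in Vehicle kidneys. It rose in D-ala against Vehicle (log2 fold change 0.36, SE 0.10, adjusted p = 0.0268) and was higher in D-ala than in L-ala kidneys (log2 fold change 0.38, SE 0.10, adjusted p = 0.0202). Adpgk, a glucokinase that uses ADP, was higher in D-ala than in L-ala kidneys (log2 fold change 0.21, SE 0.064, adjusted p = 0.0413). The Pfkfb4 call against L-ala held without any single library. The Pfkfb4 call against Vehicle was lost without D-ala replicate 1, 2 or 5 or Vehicle replicate 3 or 4 (adjusted p 0.0521 to 0.0689) and the Adpgk call without D-ala replicate 1, 2, 3 or 5, L-ala replicate 1, 2, 3 or 4 or Vehicle replicate 3 (adjusted p 0.0516 to 0.09998). The Adpgk call was also lost with no filter, after quantile normalization, with the 2 groups alone and with voom.

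Of the 10 genes of pyruvate entry and of pyruvate dehydrogenase control, 1 rose and 1 fell in D-ala against Vehicle, 0 passed in L-ala against Vehicle (4 at an unadjusted p under 0.05, and 1 by voom), and 1 was higher and 1 lower in D-ala than in L-ala kidneys. Beside 11.5%, 11% and 13.7% of all tested genes, counts this small are not a result about the list. Mpc1, a subunit of the mitochondrial pyruvate carrier that is listed as Brp44l, rose in D-ala against Vehicle (log2 fold change 0.30, SE 0.070, adjusted p = 0.0111), and Pdp1, a phosphatase that switches the complex on, fell (log2 fold change -0.34, SE 0.10, adjusted p = 0.0387). The partner subunit Mpc2, listed as Brp44, averaged 506 ± 23.2 FPKM in D-ala, 624.98 ± 85.1 FPKM in L-ala and 516 ± 42.6 FPKM in Vehicle kidneys and was lower in D-ala than in L-ala kidneys (log2 fold change -0.29, SE 0.086, adjusted p = 0.0334). Pdp2, another such phosphatase, was higher in D-ala than in L-ala kidneys (log2 fold change 0.43, SE 0.13, adjusted p = 0.0365). Pdk4, the kinase that switches the complex off in fasting, averaged 16.5 ± 7.93 FPKM in D-ala, 8.35 ± 3.22 FPKM in L-ala and 15.1 ± 6.93 FPKM in Vehicle kidneys. It varied widely within groups and did not pass, at 0.060 (95% interval -0.92 to 1.04, adjusted p = 0.957) for D-ala against Vehicle, -0.74 (95% interval -1.71 to 0.24, adjusted p = 0.285) for L-ala against Vehicle and 0.80 (95% interval -0.18 to 1.77, adjusted p = 0.251) for D-ala against L-ala. The Mpc1 call held under all 24 alternatives. The Pdp1 call was lost without D-ala replicate 1, 2 or 5 or Vehicle replicate 2, 3, 4 or 5 (adjusted p 0.0552 to 0.0998), the Mpc2 call without D-ala replicate 1, 3 or 4 or L-ala replicate 1, 3 or 4 (adjusted p 0.0637 to 0.0916) and the Pdp2 call without D-ala replicate 3, 4 or 5 or L-ala replicate 1, 2, 3 or 4 (adjusted p 0.0658 to 0.0910). The Mpc2 log2 fold change was -0.12 after quantile normalization (adjusted p = 0.125), and the calls of Mpc2, Pdp1 and Pdp2 were each lost under that scaling, with no filter on low values and with the 2 groups alone. The Pdp1 call was also lost with the GC trend removed.

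Among 12 other enzymes around the citric acid cycle, 1 rose in D-ala against Vehicle, 2 rose in L-ala against Vehicle, and 1 was higher and 2 lower in D-ala than in L-ala kidneys. Of all tested genes 11.5%, 11% and 13.7% were called, so the count for D-ala against Vehicle lay below the background. Me1, cytosolic malic enzyme, which makes NADPH, averaged 139 ± 7.24 FPKM in D-ala, 163 ± 8.74 FPKM in L-ala and 128 ± 6.14 FPKM in Vehicle kidneys. It rose in L-ala against Vehicle (log2 fold change 0.34, SE 0.054, adjusted p = 0.00298) and was lower in D-ala than in L-ala kidneys (log2 fold change -0.23, SE 0.054, adjusted p = 0.0145). Idh1, cytosolic isocitrate dehydrogenase, averaged 278 ± 15.04 FPKM in D-ala, 348 ± 20.7 FPKM in L-ala and 286 ± 20.9 FPKM in Vehicle kidneys. It also rose in L-ala against Vehicle (log2 fold change 0.29, SE 0.062, adjusted p = 0.0131) and was lower in D-ala than in L-ala kidneys (log2 fold change -0.32, SE 0.062, adjusted p = 0.00446). For both, the L-ala libraries lay above all D-ala and all Vehicle libraries. Aco1, cytosolic aconitase, rose in D-ala against Vehicle (log2 fold change 0.28, SE 0.055, adjusted p = 0.00449), and the mitochondrial malic enzyme Me2 was higher in D-ala than in L-ala kidneys (log2 fold change 0.29, SE 0.085, adjusted p = 0.0328). Of 7 shuttle carriers and enzymes, the dicarboxylate carrier Slc25a10 (log2 fold change 0.32, SE 0.073, adjusted p = 0.00924) and glycerol phosphate dehydrogenase Gpd1 (log2 fold change 0.30, SE 0.094, adjusted p = 0.0490) rose in D-ala against Vehicle, and 0 passed in the other comparisons (2 in each at an unadjusted p under 0.05, and 0 by voom). The calls of Me1, Idh1, Aco1 and Slc25a10 held without any single library. After quantile normalization the L-ala log2 fold changes against Vehicle were 0.17 for Me1 and 0.093 for Idh1 and did not pass (adjusted p = 0.0582 and 0.313). That of Me1 in D-ala against L-ala was then -0.12 and did not pass either (adjusted p = 0.133). The Me2 call was lost without D-ala replicate 1, 3 or 4 or L-ala replicate 1, 3 or 4 (adjusted p 0.0534 to 0.0777) and the Gpd1 call without D-ala replicate 1, 2 or 3, L-ala replicate 1, 2, 3 or 4 or Vehicle replicate 2, 3, 4 or 5 (adjusted p 0.0549 to 0.105). Both were lost after quantile normalization, the Gpd1 call also with no filter, with the 2 groups alone and with the GC trend removed.

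Of 10 transcription factors that act on these pathways, 2 rose in D-ala against Vehicle, 1 fell in L-ala against Vehicle, and 3 were higher in D-ala than in L-ala kidneys. The background was 11.5%, 11% and 13.7% of all tested genes, and the count for L-ala against Vehicle lay near it. Myc, an activator of glycolytic genes, averaged 8.06 ± 2.67 FPKM in D-ala, 2.14 ± 1.36 FPKM in L-ala and 2.19 ± 0.820 FPKM in Vehicle kidneys. It rose in D-ala against Vehicle (log2 fold change 1.49, SE 0.27, adjusted p = 0.00352) and was higher in D-ala than in L-ala kidneys (log2 fold change 1.56, SE 0.27, adjusted p = 0.00348). Mlxipl, which codes for ChREBP, averaged 31.6 ± 6.69 FPKM in D-ala, 23.5 ± 2.68 FPKM in L-ala and 24.3 ± 2.07 FPKM in Vehicle kidneys. It was higher in D-ala than in L-ala kidneys (log2 fold change 0.40, SE 0.11, adjusted p = 0.0319) and gave 0.34 (95% interval 0.10 to 0.59, adjusted p = 0.0587) in D-ala against Vehicle. Its relative Mlxip was likewise higher in D-ala than in L-ala kidneys (log2 fold change 0.29, SE 0.066, adjusted p = 0.0120). Ppargc1a, a coactivator of mitochondrial genes, rose in D-ala against Vehicle (log2 fold change 0.25, SE 0.061, adjusted p = 0.0149), and Hif1a, the hypoxia-inducible factor subunit, fell in L-ala against Vehicle (log2 fold change -0.24, SE 0.059, adjusted p = 0.0225). The calls of Myc, Ppargc1a and Mlxip held without any single library, while the Mlxipl call was lost without D-ala replicate 4 or 5 or L-ala replicate 1, 2 or 4 (adjusted p 0.0615 to 0.0779) and the Hif1a call without L-ala replicate 1 or 4 or Vehicle replicate 4 (adjusted p 0.0518 to 0.0713). With each library's trend with gene length removed, the calls of Mlxip, Mlxipl and Hif1a were lost. The Mlxipl call was also lost with no filter on low values and with the 2 groups alone. Ldha was called in L-ala against Vehicle, where Hif1a fell and Myc gave -0.072 (95% interval -0.66 to 0.51, adjusted p = 0.880). It was not called in D-ala against Vehicle, where Myc rose. Pfkfb3, Pklr and Mlxipl were each higher in D-ala than in L-ala kidneys. No link between these factors and the enzymes was tested. In the opposite direction of carbon flow, Pck1, which starts glucose synthesis from oxaloacetate, averaged 4136 ± 553 FPKM in D-ala, 3154 ± 257 FPKM in L-ala and 2437 ± 749 FPKM in Vehicle kidneys. G6pc, which releases glucose, averaged 458 ± 122 FPKM in D-ala, 271 ± 60.2 FPKM in L-ala and 266 ± 51.7 FPKM in Vehicle kidneys. Both rose in D-ala against Vehicle (log2 fold changes 0.82 and 0.77, adjusted p = 0.00989 and 0.0142). G6pc was also higher in D-ala than in L-ala kidneys (log2 fold change 0.74, SE 0.18, adjusted p = 0.0185). Pck1 did not pass there (0.38, 95% interval -0.0059 to 0.77, adjusted p = 0.168). How these calls fared under the alternatives is not given. Fbp1, which removes a phosphate from fructose bisphosphate, averaged 1208.9 ± 49.4 FPKM in D-ala, 1208.7 ± 112 FPKM in L-ala and 1068 ± 46.1 FPKM in Vehicle kidneys and did not pass (0.18 (95% interval 0.044 to 0.31, adjusted p = 0.0804) for D-ala against Vehicle).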

How the data were processed

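RNA had been harvested with TRIzol and made into libraries with a stranded TruSeq mRNA kit, per the labels' protocols. TopHat2 2.0.13, Bowtie2 2.2.3, SAMtools 0.1.19 and mm10 are named in the submitters' processing notes. Which program gave the values per gene, with which annotation and use of strand, is not given in the sources used here. Per the file headers, the authors deposited 3 columns for each of the 15 libraries: FPKM, a processed signal on a log2 scale that is centred per gene (not used), and a count. The deposited count behaves as a score: its whole numbers appear to have been multiplied by a library factor and then rounded. A count test was therefore not the main one. Undoing an estimate of that factor, fitted to the low counts, gave a depth of 7570000 to 10940000 reads assigned to genes. Every deposited column was mapped to a sample.

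FPKM were put on the log2(FPKM + 1) scale, which understates the changes of low genes. The test covered the 11781 of 23284 genes that reached 1 FPKM in 5 libraries or more; of the 11503 others, 5217 were at 0 in every library. All 15 libraries entered 1 fit in limma 3.58.1 (R 4.3.3, with trend and robust settings), with no covariates, and p-values were adjusted over all tested genes by Benjamini-Hochberg in each comparison and called at 0.05. The code was tested on simulated data. Replicate pairs differed beyond sampling noise, with a chi-square per gene of 4.86 to 23.7 over 30 pairs within groups. Replicates were numbered in sample order.

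The alternatives were a pseudocount of 0.1, other filters on low values, median-of-ratios and quantile scaling, fits of 2 groups alone, voom on the scaled counts with median-of-ratios library sizes, removal of each library's trend with gene length or with GC content (11322 tested genes had a GC value), and leaving out each library. Values in every library are given for genes called in any comparison and for Hk1, Hk2, Pfkl, Pfkm, Pfkp, Pfkfb3, Pklr, Ldha, Ldhb, Pdha1, Cs and Ogdh. Of the other pathway lists the called genes are named, at most 4 per list and comparison, with Pkm and Pdk4 always. The result of 1 gene of these lists is not reported here. The members and the lists were chosen with earlier results of these data known. Gene positions and shared 50-base stretches come from GENCODE M21 on GRCm38, and promoter windows from RefSeq on GRCm38.p6, matched by symbol for 35 of the 36 genes. Sequence work used Python 3.11.15.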

Additional observations from a re-analysis of the deposited data

Results flagged for a closer look

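In 7 of 106 gene and group combinations 1 library lay far from the other 4, where chance alone gives about 1 in 20. For Tpi1, D-ala replicate 2 was high at 552 FPKM, where the other D-ala libraries held 489 to 499.8 FPKM. For Ogdh, D-ala replicate 1 was high at 119 FPKM, against 108 to 111 FPKM in the other D-ala libraries.

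L-ala replicate 5, the library that stood apart from its group, was the high one for Pdha1 and Dlst. Pdha1 was at 304 FPKM there and at 273 to 279 FPKM in the other L-ala libraries, and Dlst was at 241 FPKM there and at 195 to 207 FPKM in the others. For Idh3a, L-ala replicate 3 was high at 90.5 FPKM, against 83.8 to 85.6 FPKM. For Idh3b, L-ala replicate 1 was low at 292 FPKM, against 311 to 317 FPKM. For Pfkl, Vehicle replicate 5 was low at 19.9 FPKM, against 21.3 to 21.9 FPKM in the other Vehicle libraries.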

How the results depend on the processing

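No paired analysis was possible because the replicate numbers only follow sample order and pair no samples. Of the 33 tested genes, 6, 8 and 3 were called for D-ala and L-ala, each against Vehicle, and between D-ala and L-ala. Median-of-ratios scaling, a pseudocount of 0.1 and a filter of 1 FPKM in every library left these counts as they were. After quantile normalization they were 3, 1 and 5, and 575 of all tested genes were called for L-ala against Vehicle instead of 1297. Quantile normalization turned the log2 fold change for L-ala against Vehicle to -0.026 for Aldoa, -0.058 for Tpi1 and -0.0039 for Mdh2, and that for D-ala against L-ala to 0.019 for Ldhb. With only the 2 groups compared in the fit, 2 genes of the set and 603 of all were called for L-ala against Vehicle, and 0 and 975 for D-ala against L-ala, where all groups together gave 3 and 1611. With the trend with gene length removed, L-ala against Vehicle gave 3 and 748. D-ala against Vehicle then gave 7 and 1687, and D-ala against L-ala 3 and 1339, with Idh3g among the called genes in both. With no filter on low values, limma gave 0 for D-ala against L-ala (5 higher and 5 lower at an unadjusted p under 0.05), and Gapdh was among the 7 called for L-ala against Vehicle. Leaving out 1 library at a time gave 2 to 6, 2 to 10 and 0 to 8 genes of the set and 812 to 1592, 321 to 2580 and 770 to 2761 of all tested genes in the same comparisons. The highest counts came without L-ala replicate 5, except the 6 for D-ala against Vehicle, which 5 other omissions gave too. Idh3b in L-ala against Vehicle turned to 0.011 without L-ala replicate 1 and to 0.020 without Vehicle replicate 5, and lay between -0.028 and 0.020 over all single omissions. The cause of each of these differences was not tested. Voom on the scaled counts called 6, 8 and 3 genes of the set, with Mdh1 in place of Suclg2 for D-ala against L-ala, and removal of the trend with GC content 5, 8 and 2. Under voom 50.1% of all calls for L-ala against Vehicle were higher, where 58.8% were as reported. Depth limited Hk2, at 4 to 29 scaled counts per library.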

Other observations

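Pgam2, the mutase best known from skeletal and heart muscle, was the more abundant phosphoglycerate mutase in this table. It averaged 90.1 FPKM over the 15 libraries, with a range of 66.1 to 113 FPKM, where Pgam1, the form of most tissues, averaged 10.5 FPKM with 41.48% of its 50-base stretches shared with other genes. Pgam2 was itself 1 of 8 skeletal muscle markers listed. Of the other 7, Mylpf averaged 2.05 FPKM (0.886 to 3.56 FPKM) and Actn3 0.201 FPKM, Ckm averaged 0.0210, Acta1 0.0581, Tnnt3 0.0312 and Myh1 0.001 FPKM, and Myh4 was at 0 in every library.

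The promoter windows of the set, 51 windows of 35 genes, held several motifs more often than the 32851 RefSeq windows of this length. ACGTG or GCGTG was in 72.5% of the windows of the set, belonging to 25 genes, and in 43.8% of all windows. TGACG was in 39.2% of the set, belonging to 14 genes, and in 20.8% of all. CACGTG was in 11.8% of the windows of the set, belonging to 4 genes, and in 7.15% of all. CACGGG, a motif chosen after the windows were seen, was in 25.5% of the windows of the set, belonging to 10 genes, and in 10.1% of all. Windows of 1 gene can overlap, and Ogdh alone had 6 of the 51. Base composition was not adjusted for, and these shares are a description with no test.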
